A study of Coffea canephora with 12 samples.

Results

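Caffeine synthesis in *Coffea canephora* rests on 3 N-methyltransferases, and their transcripts are described here over the induction of somatic embryogenesis from leaves. The members were chosen by gene ID as the rows Cc09_g06970 (*CcXMT*), Cc00_g24720 (*CcMXMT*) and Cc01_g00720 (*CcDXMT*), 3 of the 25574 genes counted. The samples were taken from in vitro plantlets and from explants cut from their leaves, with 2 RNA-seq libraries at each of 6 time points. At 21 dai, 2 dai and 1 dai (days after induction) the samples were leaf explants in Yasuda medium with benzyladenine (BA), a cytokinin, kept in the dark. At 0 dbi and 9 dbi (days before induction) they were leaves of plantlets on MS medium with naphthaleneacetic acid (labelled ANA), an auxin, and kinetin (KIN), another cytokinin. The control, 14 dbi, was leaves of plantlets on MS medium with no growth regulators. All plantlets came from 1 variety, Robusta. By the design text, both libraries at a given stage are technical repeats from a single biological sample. The p-values between time points therefore measure only the spread between libraries. Those for stages, ratios and correlations take the time points as units and measure the spread between time points. Neither kind measures the spread between biological samples of the same time point. The stages also differ in wounding, medium and light, which cannot be told apart from induction. In RNA of whole leaves or explants, fewer cells of a type and less RNA per cell cannot be told apart either.

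Caffeine is built from xanthosine, a purine nucleoside, by adding methyl groups one at a time, each taken from S-adenosylmethionine. Xanthosine methyltransferase (XMT) adds the first and yields methylxanthosine, from which the sugar is then removed to leave methylxanthine. Methylxanthine methyltransferase (MXMT, also called theobromine synthase) adds the next and yields theobromine. Dimethylxanthine methyltransferase (DXMT, caffeine synthase) adds the last and yields caffeine. In coffee plants the pathway is known for its activity in young leaves and in developing fruit, and caffeine is regarded as a chemical defence. The enzymes belong to a plant family of small-molecule methyltransferases and resemble each other closely in sequence. A read that fits more than 1 of them can fail the mapping quality limit and go uncounted, so the level of each gene is uncertain to that extent. The names and roles were assigned to the gene IDs when the members were chosen. They were not checked, since the deposited files and the gene table used here give no descriptions. For the same reason the leaf tissue was not checked against marker genes.

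In the gene table of the AUK_PRJEB4211_v1 assembly, *CcXMT* lies on chromosome 9 and *CcDXMT* on chromosome 1. *CcMXMT* lies on an unplaced scaffold that holds no other annotated gene. The gene models span 2305 bp (*CcXMT*), 2411 bp (*CcMXMT*) and 2422 bp (*CcDXMT*), introns included. The genome build of the count files is not given in the sources used here, so no coordinates are given.

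The libraries held 10091539 to 36525500 reads in genes, with a median of 22765039. The limit that a count of 0 sets at these depths (3 counts, for counting error alone) was 0.0821 to 0.297 CPM, and the lowest level of any member was 20.4 CPM. The lowest counts were 3732 reads for *CcXMT*, 374 for *CcMXMT* and 1517 for *CcDXMT*. In 4 libraries, which are replicate 1 of 14 dbi, 0 dbi, 2 dai and 21 dai, 17.6% to 20.3% of reads had low mapping quality, against 11.2% to 12.7% in the other 8. Levels are given as normalized counts, which are read counts scaled to a common library size with TMM factors. A gene was called changed at an adjusted p under 0.05 (Benjamini-Hochberg over all genes tested) in edgeR's quasi-likelihood test.

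Of the 3 genes, *CcDXMT* rose at 1 dai, by 2.32 on the log2 scale over 14 dbi, and *CcMXMT* rose at 21 dai, by 3.65 on that scale, or 12.6-fold. *CcXMT* was called in no comparison. Per kb of gene model *CcXMT* was the highest of the 3 in every library except replicate 1 of 21 dai, and *CcMXMT* was the lowest in all 10 libraries outside 21 dai. Over the 6 time points, *CcMXMT* (adjusted p = 0.0113 by edgeR's F test) and *CcDXMT* (adjusted p = 0.0427) changed, and *CcXMT* was not called (adjusted p = 0.831). The 2 of 3 members called stand beside 21.9% of the 20745 genes tested. The call of *CcMXMT* was lost without replicate 2 of 21 dai (adjusted p = 0.0780 by edgeR). That of *CcDXMT* was lost without any 1 library outside 9 dbi (adjusted p = 0.0580 to 0.131 by edgeR).

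**Figure D1:**
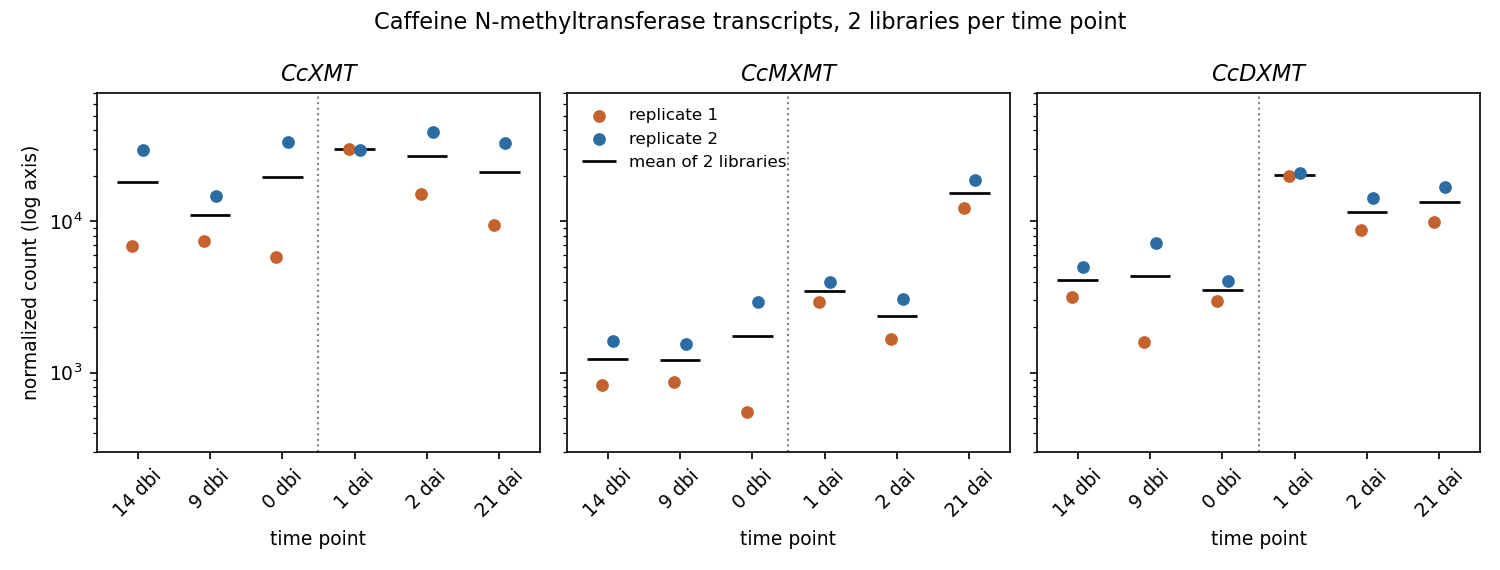
Normalized counts on a log axis of *CcXMT*, *CcMXMT* and *CcDXMT* at the 6 time points, with each of the 2 libraries as a point and their mean as a bar. The dotted line marks induction. *CcMXMT* stands at 12232 and 18763 at 21 dai and at no more than 3976 in every other library, *CcDXMT* is highest at 1 dai, and the libraries of *CcXMT* differ widely at most time points.

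*CcXMT*, the entry step, was counted with 292302 reads over the 12 libraries. In replicates 1 and 2 its normalized counts were 6851 and 29801 for 14 dbi, 7408 and 14643 for 9 dbi, and 5787 and 33446 for 0 dbi. After induction they were 30135 and 29733 for 1 dai, 15143 and 38698 for 2 dai, and 9418 and 32722 for 21 dai. The pair of libraries was nearly equal at 1 dai and further apart at the other time points, and the ranges of neighbouring time points in the order of their means (1 dai, 2 dai, 21 dai, 0 dbi, 14 dbi, 9 dbi) all overlapped. The gap between libraries was 2.53 on the log2 scale at 0 dbi, where the median gap of all genes tested was 0.73 and 10.3% of them had a gap as large. At 14 dbi, 2 dai and 21 dai 10.4% to 11.1% of genes had gaps as large as that of *CcXMT*. At 9 dbi its gap was 0.98, and 36.3% of genes had one as large. At 1 dai its gap was 0.02, and 90.5% of genes had a larger one.

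The low values of *CcXMT* lay mostly in the libraries where more reads had low mapping quality. In these 4 libraries it had 5787 to 15143 normalized counts, with a median of 8134. In the other 8 it had 7408 to 38698, with a median of 29968, and the 2 lowest of these were both at 9 dbi. At 14 dbi, 0 dbi, 2 dai and 21 dai its level in replicate 2 was 2.56 to 5.78 times that in replicate 1. The same ratio was 1.53 to 5.37 for *CcMXMT* and 1.34 to 1.71 for *CcDXMT*. Within replicate 2 of those 4 time points alone, *CcXMT* ran only from 29801 to 38698. *CcXMT* was called in no comparison with a term for low mapping quality in the fit (over time adjusted p = 0.0991 by edgeR), nor on the 8 libraries under 15% (over time adjusted p = 0.251 by edgeR).

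**Figure D2:**
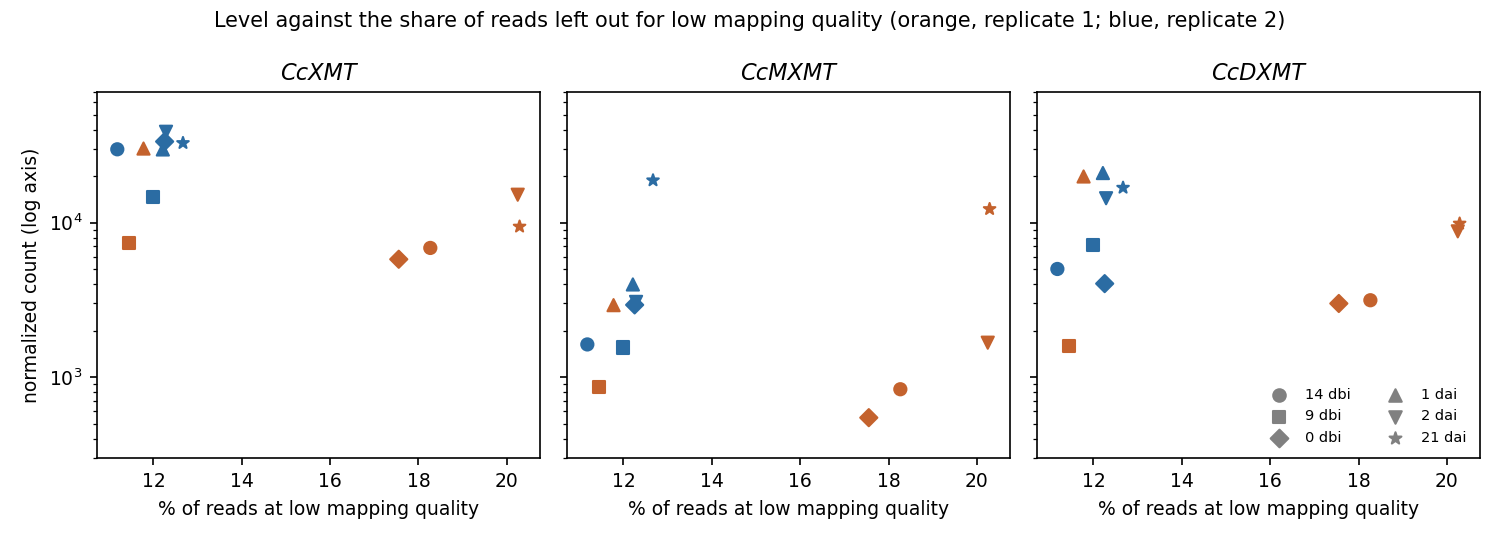
Normalized counts on a log axis of each gene against the percentage of reads left out for low mapping quality in that library, 1 point per library, with the time point as the shape. *CcXMT* is at 5787 to 15143 in the 4 libraries over 15% and reaches 38698 in the other 8, while *CcMXMT* is highest at 21 dai on both sides.

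*CcMXMT*, the theobromine step, was counted with 53346 reads in all. In replicates 1 and 2 it stood at 834 and 1626 normalized counts for 14 dbi, 867 and 1552 for 9 dbi, and 546 and 2931 for 0 dbi. It stood at 2920 and 3976 for 1 dai, 1669 and 3065 for 2 dai, and 12232 and 18763 for 21 dai. Both libraries of 21 dai stood above all 10 others, and the share of all genes that do so was not computed. The other time points, in the order 1 dai, 2 dai, 0 dbi, 14 dbi and 9 dbi by their means, overlapped with their neighbours in that order. In rank by reads per kb of gene model, where 1 is the highest of the 25574 genes, *CcMXMT* was 266th and 119th at 21 dai and between 902nd and 6431st in the other libraries.

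*CcDXMT*, the caffeine step, was counted with 122821 reads in all. Replicates 1 and 2 gave 3142 and 5007 normalized counts for 14 dbi, 1586 and 7148 for 9 dbi, and 2993 and 4025 for 0 dbi. They gave 19872 and 20916 for 1 dai, 8773 and 14370 for 2 dai, and 9852 and 16810 for 21 dai. Each of the 6 libraries after induction stood above each of the 6 before it. The libraries of a time point share a single biological sample, and the share of all genes that separate in this way was not computed. In the order of the means, 1 dai did not overlap with 21 dai, which overlapped with 2 dai. The level at 2 dai did not overlap with 9 dbi, and 9, 14 and 0 dbi overlapped with each other. Neither pair without overlap was compared by a test. The order was taken from the same means, and the share of all genes without such overlap was not computed. The gap between the libraries of 9 dbi, 2.17 on the log2 scale, was the largest for this gene.

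Against 14 dbi, *CcMXMT* rose at 21 dai to 15498 ± 4619 normalized counts, against 1230 ± 560 at 14 dbi (SD, n = 2 libraries), or 3.65 ± 0.76 (SE) on the log2 scale (adjusted p = 0.0119 by edgeR). The increase was called in 20 of 21 alternative fits and lost without replicate 1 of 14 dbi (log2 fold change 3.25, adjusted p = 0.0745 by edgeR). *CcDXMT* had 13331 ± 4920 at 21 dai and 4074 ± 1318 at 14 dbi (log2 fold change 1.71 ± 0.64 SE, adjusted p = 0.104 by edgeR), which was not called. *CcXMT* had 21070 ± 16479 at 21 dai and 18326 ± 16228 at 14 dbi (log2 fold change 0.20, 95% interval −1.88 to 2.29, adjusted p = 0.924 by edgeR). The 1 of 3 members called stands beside 13.7% of all genes tested in this comparison, and 6.64% of genes had a larger log2 fold change than *CcMXMT*.

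At 1 dai against 14 dbi it was *CcDXMT* that rose, to 20394 ± 738 normalized counts against 4074 ± 1318 at 14 dbi (SD, n = 2 libraries), or 2.32 ± 0.65 (SE) on the log2 scale (adjusted p = 0.0481 by edgeR). *CcMXMT* had 3448 ± 746 at 1 dai and 1230 ± 560 at 14 dbi (log2 fold change 1.49, 95% interval −0.07 to 3.04, adjusted p = 0.196 by edgeR). *CcXMT* had 29934 ± 284 at 1 dai and 18326 ± 16228 at 14 dbi (log2 fold change 0.71, 95% interval −1.39 to 2.80, adjusted p = 0.677 by edgeR). Over all genes, 10.7% were called in this comparison. The log2 fold change of *CcDXMT* ran from 2.02 to 2.70 over 21 alternative fits, 10 of which lost the call. These were the fits without either library of 14 dbi, 1 dai, 2 dai or 21 dai (adjusted p = 0.0625 to 0.197 by edgeR), the fit with a term for mapping quality and that on the 8 libraries with a low share of it.

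**Figure D3:**
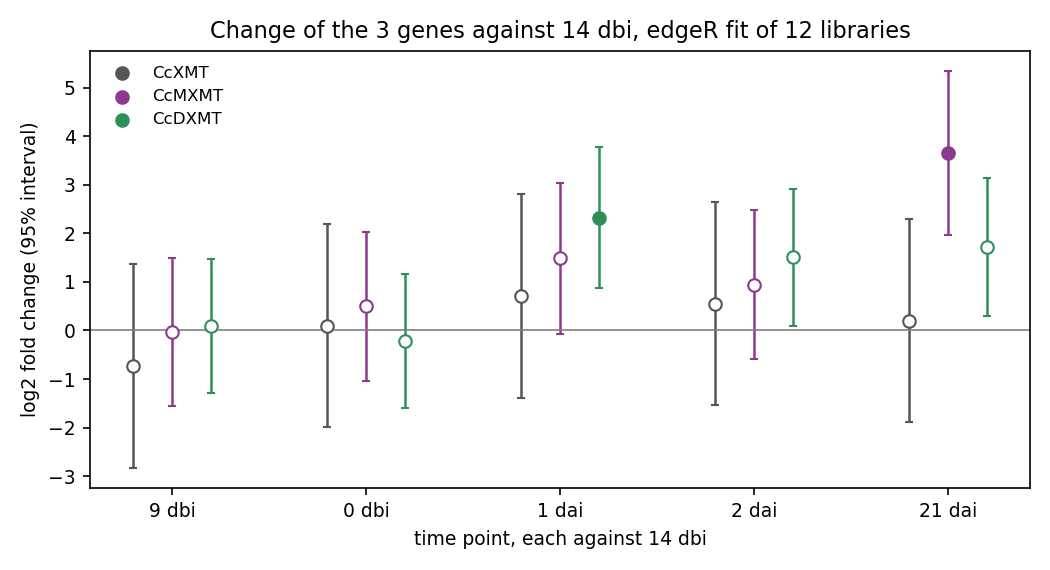
Log2 fold changes of the 3 genes at 9 dbi, 0 dbi, 1 dai, 2 dai and 21 dai, each against 14 dbi, with 95% intervals from the edgeR fit of 12 libraries and called changes as filled points. *CcDXMT* is called at 1 dai (2.32) and *CcMXMT* at 21 dai (3.65), and the intervals of *CcXMT* include 0 at all 5 time points.

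The pretreatment with naphthaleneacetic acid and kinetin gave no call for any member. At 9 dbi against 14 dbi edgeR called 0 of 3, with 0 at an unadjusted p under 0.05, and 0.535% of all genes. DESeq2 also called 0 of 3, and 7.44% of all genes. The log2 fold changes were −0.73 for *CcXMT* (95% interval −2.83 to 1.36), −0.03 for *CcMXMT* (−1.55 to 1.5) and 0.10 for *CcDXMT* (−1.28 to 1.48). At 0 dbi against 14 dbi edgeR called 0 of 3 members, with 0 at an unadjusted p under 0.05, and 0% of all genes. DESeq2 called 0 of 3 and 0.256% of all genes. There the log2 fold changes were 0.10 for *CcXMT* (95% interval −1.99 to 2.18), 0.50 for *CcMXMT* (−1.03 to 2.03) and −0.22 for *CcDXMT* (−1.60 to 1.17). These intervals leave room for changes of more than 2-fold in either direction.

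Over the step of induction itself, 1 dai against 0 dbi, *CcDXMT* was the 1 member called. It rose to 20394 ± 738 normalized counts at 1 dai, against 3509 ± 729 at 0 dbi (SD, n = 2 libraries), or 2.54 ± 0.66 (SE) on the log2 scale (adjusted p = 0.0433 by edgeR). In this comparison 3.90% of all genes had a larger log2 fold change than *CcDXMT*. The members called were 1 of 3, against 7.82% of all genes. Like the call against 14 dbi, which shares the libraries of 1 dai, it was lost in 10 of 21 alternative fits, with a log2 fold change of 2.23 to 2.77 over all of them. Leaving out either library of 0 dbi, 1 dai, 2 dai or 21 dai was enough (adjusted p = 0.0580 to 0.196 by edgeR). *CcMXMT* had 3448 ± 746 at 1 dai and 1739 ± 1687 at 0 dbi (log2 fold change 0.99, adjusted p = 0.417 by edgeR). Without replicate 2 of 0 dbi it was called (log2 fold change 2.66, adjusted p = 0.0378 by edgeR). *CcXMT* had 29934 ± 284 at 1 dai and 19617 ± 19558 at 0 dbi (log2 fold change 0.61, adjusted p = 0.746 by edgeR), and both libraries of 1 dai lay between those of 0 dbi.

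At 2 dai edgeR called no member. Against 14 dbi the count was 0 of 3 by edgeR, with 1 (*CcDXMT*) at an unadjusted p under 0.05, and 4.94% of all genes. DESeq2 called 0 of 3 and 12.9% of all genes. *CcDXMT* had 11572 ± 3958 normalized counts at 2 dai and 4074 ± 1318 at 14 dbi (SD, n = 2 libraries; log2 fold change 1.51, adjusted p = 0.231 by edgeR). Against 0 dbi edgeR called 0 of 3, with 1 (*CcDXMT*) at an unadjusted p under 0.05, and 4.24% of all genes. DESeq2 called 1 of 3 there, *CcDXMT* (adjusted p = 0.0471 by DESeq2), and 13.2% of all genes. The log2 fold change of *CcDXMT* against 0 dbi was 1.72 (adjusted p = 0.174 by edgeR), that of *CcMXMT* 0.44 and that of *CcXMT* 0.46.

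At 21 dai against 0 dbi *CcMXMT* rose again, to 15498 ± 4619 normalized counts against 1739 ± 1687 at 0 dbi (SD, n = 2 libraries; log2 fold change 3.16 ± 0.75 SE, adjusted p = 0.0200 by edgeR). This comparison shares the libraries of 21 dai with that against 14 dbi. The call was lost without replicate 1 of 0 dbi or either library of 21 dai (log2 fold change 2.40 to 3.43, adjusted p = 0.0548 to 0.0795 by edgeR), on the 4 libraries compared and on the 8 libraries where fewer reads had low mapping quality. *CcDXMT* had 13331 ± 4920 at 21 dai and 3509 ± 729 at 0 dbi (log2 fold change 1.93, adjusted p = 0.0739 by edgeR), and *CcXMT* had 21070 ± 16479 at 21 dai and 19617 ± 19558 at 0 dbi (log2 fold change 0.10, adjusted p = 0.965 by edgeR). The members called were 1 of 3, against 14.1% of all genes.

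Between 2 and 21 dai, when the first embryogenic structures form, *CcMXMT* had 12232 and 18763 normalized counts at 21 dai, against 1669 and 3065 at 2 dai. Its log2 fold change was 2.71 (standard error 0.73, 95% interval 1.09 to 4.33, adjusted p = 0.105 by edgeR). EdgeR called 0 of 3 members, with 1 (*CcMXMT*) at an unadjusted p under 0.05, and 1.33% of all genes. DESeq2 called 1 of 3, *CcMXMT* (adjusted p = 0.00239 by DESeq2), and 8.54% of all genes. *CcMXMT* was called in 6 of 21 alternative fits, DESeq2 among them, and not in the others. EdgeR called it on the 4 libraries compared (adjusted p = 0.00710), where 2730 of 20021 genes were called. With a term for mapping quality edgeR also called it (adjusted p = 0.0361), with 331 of 20745 genes. *CcDXMT* had a log2 fold change of 0.20 (95% interval −1.18 to 1.58) and *CcXMT* of −0.35 (−2.44 to 1.73), neither of them called.

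Both libraries of a time point were also summed and the stages compared (n = 3 time points each). Induction was 1, 2 and 21 dai, and pretreatment was 14, 9 and 0 dbi, which includes the control. *CcDXMT* was higher in induction than in pretreatment, by 1.99 ± 0.33 (SE) on the log2 scale (adjusted p = 0.0188 by edgeR). The difference was 2.37 ± 0.75 (SE) for *CcMXMT* (adjusted p = 0.0866 by edgeR) and 0.68 ± 0.39 (SE) for *CcXMT* (adjusted p = 0.302 by edgeR) on the same scale. Without the time point 21 dai the difference of *CcMXMT* was 1.03 (adjusted p = 0.0874 by edgeR). In all, 1 of 3 members was called, against 11.0% of the 19990 genes tested. The call of *CcDXMT* was lost on either replicate alone and without the time point 14 dbi, 9 dbi, 0 dbi or 2 dai (log2 fold change 1.69 to 2.25, adjusted p = 0.0519 to 0.0794 by edgeR).

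Ratios between the genes within a library do not depend on the scaling of that library. Per kb of gene model, the ratio of *CcMXMT* to *CcXMT* was 1.24 and 0.548 at 21 dai in replicates 1 and 2, and 0.0522 to 0.128 in the other 10 libraries. At 21 dai *CcMXMT* was thus above *CcXMT* in one library and below it in the other, and at the other time points it was below it in each library. The ratio of *CcMXMT* to *CcDXMT* was 1.25 and 1.12 at 21 dai, 0.148 to 0.214 in the 4 libraries of 1 and 2 dai, and 0.183 to 0.732 in the 6 before induction. *CcMXMT* was therefore above *CcDXMT* only in the 2 libraries of 21 dai. The ratio of *CcDXMT* to *CcXMT* was 0.996 and 0.489 at 21 dai, 0.353 to 0.669 at 1 and 2 dai, and 0.115 to 0.492 before induction, with overlap between the stages.

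**Figure D4:**
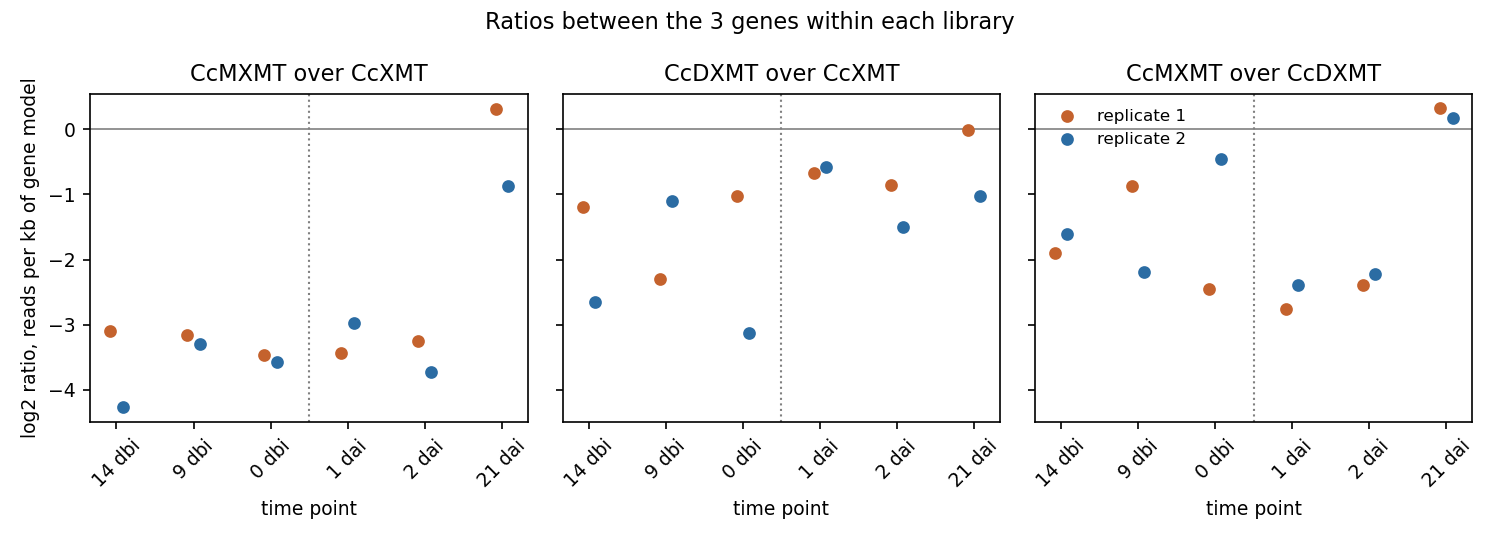
Log2 ratios between the 3 genes within each library, from reads per kb of gene model, at the 6 time points, with 1 point per library and the dotted line at induction. Both ratios with *CcMXMT* on top stand apart at 21 dai, at −0.87 and 0.31 against *CcXMT* and at 0.17 and 0.32 against *CcDXMT*.

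For the stages as a whole, the mean log2 ratio of *CcDXMT* to *CcXMT* was −0.97 ± 0.37 in induction and −2.19 ± 0.69 in pretreatment (SD, n = 3 time points each). Pretreatment again included the control, 14 dbi. The exact two-sided permutation test gave p = 0.1, the smallest that 3 against 3 allows, and 0.300 after adjustment over the 3 ratios. The log2 ratio of *CcMXMT* to *CcXMT* was −2.50 ± 1.55 in induction and −3.64 ± 0.42 in pretreatment (exact permutation p = 0.300, adjusted 0.450), and that of *CcMXMT* to *CcDXMT* −1.54 ± 1.5 in induction and −1.45 ± 0.54 in pretreatment (exact permutation p = 1.00).

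Whether the 3 steps moved together was also read from the mean log2 levels over the 6 time points. *CcDXMT* and *CcXMT* gave Pearson's r = 0.909 (exact permutation p = 0.0139, adjusted over 3 pairs 0.0417) and Spearman's rho = 0.943 (exact permutation p = 0.0167, adjusted 0.05). Without 9 dbi and 1 dai, the time points farthest from the median of *CcDXMT*, or with replicate 1 alone, r was 0.813 and 0.856, but with replicate 2 alone it was 0.224 (adjusted exact permutation p = 0.817). *CcMXMT* and *CcDXMT* gave r = 0.730 (exact permutation p = 0.0528, adjusted 0.0792) and rho = 0.886 (exact permutation p = 0.0333, adjusted 0.05). *CcMXMT* and *CcXMT* gave r = 0.436 (exact permutation p = 0.419) and rho = 0.771 (exact permutation p = 0.103). Without 1 and 21 dai the r of these pairs was 0.980 and 0.930. The pairs share their libraries, and each r rests on few time points, of which 4 remain in the reduced set.

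The genes whose log2 levels were most like those of each member over the 12 libraries were listed as a description, with the libraries shared by all of them. For *CcXMT* these were Cc00_g23370 (r = 0.933), Cc02_g06900 (0.932) and Cc11_g01020 (0.925). For *CcMXMT* they were Cc01_g12550 (r = 0.967), Cc01_g06670 (0.960) and Cc03_g05340 (0.951), and for *CcDXMT* Cc05_g00820 (0.961), Cc07_g02290 (0.950) and Cc11_g14840 (0.949). No member was among the 3 genes most like another. The r between members over the 12 libraries was 0.536 for *CcMXMT* and *CcXMT*, 0.679 for *CcDXMT* and *CcXMT*, and 0.707 for *CcMXMT* and *CcDXMT*. In the last pair, 1564 of the 20744 other genes tested were more like *CcMXMT* than *CcDXMT* was, and 1595 more like *CcDXMT* than *CcMXMT* was. For *CcDXMT* and *CcXMT*, 1891 were more like *CcDXMT* than *CcXMT* was, and 732 more like *CcXMT* than *CcDXMT* was. For *CcMXMT* and *CcXMT* the counts were 3943 more like *CcMXMT* and 2169 more like *CcXMT*.

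The 5 annotated genes on each side of *CcXMT* and of *CcDXMT* gave 20 neighbours, of which 15 had enough reads to be tested and 3 had no read. Over the 6 time points 2 of the 15 were called (13.3%, against 21.9% of all genes). One was Cc09_g07020, 5 places from *CcXMT*, with 3429 and 4688 normalized counts at 21 dai and 0 to 22.5 in the other 10 libraries (adjusted p = 0.00132 by edgeR). The other was Cc01_g00670, 5 places from *CcDXMT*, which fell at 21 dai to 593 and 744 normalized counts, against 5376 and 4441 at 14 dbi (log2 fold change −2.87, adjusted p = 0.00174 by edgeR). The neighbours of *CcXMT* that follow were chosen after their values were seen. Cc09_g06960, 1 place away, had 1738 reads in all and an r of 0.81 with *CcXMT* over the 12 libraries. Cc09_g06980, 1 place away on the other side, had 64 reads and an r of −0.04. Beyond it, Cc09_g06990, Cc09_g07000 and Cc09_g07010 had 182, 62 and 1395 reads. Their r with *CcXMT* was 0.69, 0.64 and 0.69, and that of Cc09_g07020 was 0.18. Cc09_g06950, 2 places away on the side of Cc09_g06960, had 295115 reads and an r of −0.14 with *CcXMT*. It was not called over the 6 time points (adjusted p = 0.257 by edgeR).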

How the data were processed

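RNA-seq reads of 12 libraries were counted per gene. According to the submitters' notes, the authors checked reads with FastQC 0.11.5, trimmed them with cutadapt 1.14 and counted them with HTSeq 0.10.0. The deposited values are whole-number read counts, not normalized, with 5 lines of unassigned reads per file that stayed out of library sizes and tests (11.2% to 20.3% of reads had low mapping quality and 23.1% to 45.9% were not aligned). For the aligner, the strand setting and the build, nothing is given in the sources used here. All 25574 IDs matched a locus tag of the gene table.

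Analyses used R 4.3.3, edgeR 4.0.16 and DESeq2 1.42.0. Genes were filtered with filterByExpr by time point (20745 left), scaled by TMM and fitted together with time point as the only factor, and 9 comparisons, an F test over the time points and a fit of stages on summed libraries (19990 genes) were made. Levels are log2(normalized count + 1). Each standard error is the log2 fold change over the root of its F statistic. The libraries of a time point differed by more than sampling noise and were kept apart. The steps were tested on simulated counts.

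The members, tests and lists were chosen with earlier results of these data known. Named genes were the members, called genes among 5 neighbours on each side, and the 3 genes most like each member by Pearson's r. Neighbours of *CcXMT* that were not called were also named, chosen after their values were seen. Lists by sequence similarity or gene description, and promoter motifs, were not applied, since the tables used here hold neither sequences nor descriptions. Alternatives were DESeq2, other size factors, no filter or at least 10 counts in every library, a replicate block, a term for low mapping quality (over 15%), fits without 1 library or 1 time point, and fits of the 4 compared libraries alone. The 8 libraries under 15% were added after the data were seen.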

Additional observations from a re-analysis of the deposited data

How the results depend on the processing

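Of the calls, that of *CcMXMT* at 21 dai against 14 dbi was kept in 20 of 21 alternatives, and *CcXMT* was called in 0. The numbers of members called changed as follows. DESeq2 called 2 at 21 dai against 14 dbi (23.9% of all genes, against 13.7% by edgeR) and 2 at 21 dai against 0 dbi (24.3%, against 14.1%). It called 1 at 2 dai against 0 dbi (13.2%, against 4.24%) and 1 at 21 dai against 2 dai (8.54%, against 1.33%). Between stages it called 2 (24.1%, against 11.0%). A term for low mapping quality gave 0 at 1 dai against 14 dbi, 0 at 1 dai against 0 dbi and 1 at 21 against 2 dai. Over all genes that fit called 2092, 1546 and 331 of 20745. The 4 libraries compared alone gave 0 at 21 dai against 0 dbi and 1 at 21 against 2 dai. Over all genes the calls there were 2725 of 19887 and 2730 of 20021. Replicate 1 alone and replicate 2 alone each gave 0 between stages, with 225 of 18491 and 910 of 19421 genes called. The 8 libraries under 15% low mapping quality, an alternative added with the data in view, gave 0 at 1 dai against 14 dbi, 0 at 1 dai against 0 dbi, 0 at 21 dai against 0 dbi and 1 over the time points. Leaving out 1 library gave 0 to 1 members at 1 dai against 14 dbi, at 1 dai against 0 dbi and at 21 against 2 dai, and 0 to 2 at 21 dai against 14 dbi, at 21 dai against 0 dbi and over the time points. Leaving out 1 time point gave 0 to 1 between stages. The causes of these changes were not tested. Shares of all genes are not given for the 8 libraries or the leave-outs.

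The labels do not pair the libraries by number, and 5 of 15 correlations of their deviations were over 0.1 (−0.05 to 0.38). All 5 lay among 14 dbi, 0 dbi, 2 dai and 21 dai, whose replicate 1 had the higher share of low mapping quality. With the replicate block, 2 members were called at 21 dai against 0 dbi, *CcDXMT* (adjusted p = 0.0358 by edgeR) beside *CcMXMT*, and 2899 of 20745 genes. At 21 against 2 dai it called 1 member and 290 of 20745 genes. *CcDXMT* at 9 dbi against 14 dbi was −0.0778 with the block.

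Directions reversed only in log2 fold changes that were not called. *CcMXMT* at 9 dbi against 14 dbi was 0.0377 with DESeq2, 0.0374 with RLE factors and 0.0484 with at least 10 counts in every library. *CcXMT* at 0 dbi against 14 dbi was −0.0239 with library size only and −0.0119 with the mapping quality term, and *CcDXMT* at 9 dbi was −0.18 with that term. The 4 libraries gave −0.0453 for *CcXMT* at 21 dai against 0 dbi. The 8 libraries gave −0.0312 for it, −0.16 for *CcXMT* at 1 dai against 0 dbi and −0.20 for *CcDXMT* at 9 dbi. Leaving out 1 library moved *CcXMT* over −1.44 to 0.69 (9 dbi), −1.67 to 1.52 (0 dbi), −0.28 to 1.98 (2 dai) and −0.96 to 1.62 (21 dai) against 14 dbi, −0.16 to 2.37 (1 dai), −0.37 to 2.22 (2 dai) and −1.06 to 1.87 (21 dai) against 0 dbi, and −1.52 to 0.48 at 21 against 2 dai. It moved *CcMXMT* over −0.51 to 0.54 (9 dbi) and −1.18 to 1.25 (0 dbi) against 14 dbi and −0.31 to 2.12 at 2 dai against 0 dbi. It moved *CcDXMT* over −1.36 to 0.81 (9 dbi) and −0.51 to 0.16 (0 dbi) against 14 dbi and −0.23 to 0.60 at 21 against 2 dai. The r of *CcDXMT* and *CcXMT* was 0.92 with library size only (adjusted exact permutation p = 0.05), 0.86 with replicate 1 and 0.22 with replicate 2. The stage difference in the log2 ratio of *CcMXMT* to *CcDXMT* was 0.13 with replicate 1 alone and −0.95 to 0.41 without 1 time point, leave-outs added after seeing the data.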
